A study of Rattus norvegicus with 6 samples.

Results

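The regulators of G protein signalling (RGS proteins) described here are 10 rat genes, Rgs1, Rgs2, Rgs3, Rgs4, Rgs5, Rgs8, Rgs10, Rgs14, Rgs16 and Rgs19. They were taken by gene symbol from the array annotation, which gave 14 probe sets among the 31042 tested and 10 of 14217 genes with a single symbol. They were measured on 6 Affymetrix arrays of primary rat Schwann cells, the glia that ensheathe peripheral axons, taken from sciatic nerve and grown in culture. All cells, controls included, carried an inducible RafER allele, in which Raf kinase is joined to an estrogen receptor domain so that tamoxifen turns the kinase on. After plating in serum and a day in a defined minimal medium, 3 cultures received the ethanol vehicle and 3 received tamoxifen for 24 h, in 3 experiments that the design text calls independent. The source labels speak of treated rats, but the series' design describes treated cultures, and the design was followed. Strain, age, the number of animals pooled and how the allele was introduced are not given in the sources used here. Cells lacking RafER are not analysed here, and an effect of Raf and an effect of tamoxifen itself cannot be told apart.

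Heterotrimeric G proteins carry signals from receptors on the cell surface. A receptor loads the alpha subunit with GTP, and the signal lasts until the alpha subunit hydrolyses it. RGS proteins bind the alpha subunit through a shared RGS domain and speed up that hydrolysis, so they shorten or weaken signals of the Gi and Gq classes. In Schwann cells, receptors that act through G proteins and cyclic AMP help to start myelination, and lysophosphatidic acid and sphingosine phosphate receptors act on cell shape and survival.

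After tamoxifen the 10 genes went different ways. Rgs2, which acts mainly on Gq alpha subunits, fell 3.40-fold by its brighter probe set and 2.31-fold by the dimmer one. Rgs3 and Rgs10 rose 1.96-fold and 1.94-fold, Rgs3 by 1 of its 3 probe sets. Rgs4 fell 1.29-fold by 1 of its 2 probe sets, at a low level. Arrays with the same number in their titles are called 1 experiment here, a pairing inferred from the titles and from correlations in these data. Rgs16 and Rgs19 were above the vehicle array of the same number in each of the 3 experiments. Both passed the threshold when the experiment was included in the model, but not without it, so these calls rest on that pairing. Rgs1, Rgs5, Rgs8 and Rgs14 did not pass.

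Of 14 probe sets, 2 were higher and 3 lower at an adjusted p of 0.05 (limma, Benjamini-Hochberg over all probe sets), and 9 did not pass. Over all 31042 probe sets 24.4% passed, 11.5% higher and 12.9% lower, against 35.7% of the RGS probe sets. With so few probe sets, several of them from the same gene, nothing particular to the RGS genes is read from that share. In 7 of the 14 the groups of 3 arrays did not overlap, against 42.4% of all probe sets. Taking the brightest probe set of each gene, 2 of 10 genes rose, 1 fell and 7 did not pass. Among all genes 31.2% passed, 13.9% higher and 17.3% lower, and the groups did not overlap for 5 of the 10 genes and 49.1% of all genes. The median change was 0.29 log2 units for the 10 genes and 0.01 for all genes. It was 0.13 for the 14 probe sets and 0.03 for all probe sets. The middle values of the 10 genes are those of Rgs5 and Rgs8, which are dim and did not pass. With the experiment as a block, 4 of the 10 genes rose (Rgs3, Rgs10, Rgs16 and Rgs19) and 1 fell. The block also gave more calls over all 31042 probe sets, 3675 higher and 4584 lower, against 3574 and 4004 without it. The shares above come from the fit without the block. Leaving out vehicle array 2, tamoxifen array 2 or tamoxifen array 3 left 1 gene higher, which was Rgs3, and leaving out vehicle array 3 gave 3, with Rgs19 added. Bulk RNA was measured, so fewer cells that carry a transcript and less of it per cell cannot be told apart.

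The sequences around the transcription starts of the genes that changed are shown because these genes went opposite ways in the same cells. RefSeq start windows (build GRCr8, 250 bases before and 50 after a start, read 5′ to 3′ along the gene) were found for all 10 genes, and those of the 5 genes past the threshold by their brightest probe set with or without the block are printed. The table gives 1 window for each of these genes, so other starts of Rgs3, a gene with long and short forms, are not shown. Capitals mark matches on either strand to the motifs listed after the sequences.
Rgs2, chr13:58352617-58352916, minus strand: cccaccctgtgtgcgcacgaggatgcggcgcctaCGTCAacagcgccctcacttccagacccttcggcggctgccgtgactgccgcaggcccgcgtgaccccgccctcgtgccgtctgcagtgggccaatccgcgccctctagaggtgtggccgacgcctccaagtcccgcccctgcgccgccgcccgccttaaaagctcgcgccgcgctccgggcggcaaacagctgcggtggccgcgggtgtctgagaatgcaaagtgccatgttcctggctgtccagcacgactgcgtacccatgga
Rgs3, chr5:81093801-81094100, plus strand: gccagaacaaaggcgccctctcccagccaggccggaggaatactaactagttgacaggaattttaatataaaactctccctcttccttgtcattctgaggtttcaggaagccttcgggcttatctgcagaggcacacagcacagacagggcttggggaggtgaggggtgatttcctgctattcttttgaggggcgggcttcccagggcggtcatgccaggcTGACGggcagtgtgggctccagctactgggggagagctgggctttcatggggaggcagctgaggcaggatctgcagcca
Rgs10, chr1:192418028-192418327, minus strand: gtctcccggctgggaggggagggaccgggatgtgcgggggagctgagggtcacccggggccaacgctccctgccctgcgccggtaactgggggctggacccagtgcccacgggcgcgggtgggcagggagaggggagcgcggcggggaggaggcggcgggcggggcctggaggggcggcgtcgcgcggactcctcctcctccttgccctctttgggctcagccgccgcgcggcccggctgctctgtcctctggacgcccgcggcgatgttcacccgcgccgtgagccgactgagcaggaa
Rgs16, chr13:68437870-68438169, plus strand: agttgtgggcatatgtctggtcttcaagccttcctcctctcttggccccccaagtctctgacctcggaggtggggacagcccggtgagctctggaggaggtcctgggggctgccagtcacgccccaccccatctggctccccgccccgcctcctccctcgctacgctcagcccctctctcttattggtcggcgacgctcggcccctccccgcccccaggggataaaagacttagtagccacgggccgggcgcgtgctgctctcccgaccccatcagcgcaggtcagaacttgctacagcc
Rgs19, chr3:189187238-189187537, minus strand: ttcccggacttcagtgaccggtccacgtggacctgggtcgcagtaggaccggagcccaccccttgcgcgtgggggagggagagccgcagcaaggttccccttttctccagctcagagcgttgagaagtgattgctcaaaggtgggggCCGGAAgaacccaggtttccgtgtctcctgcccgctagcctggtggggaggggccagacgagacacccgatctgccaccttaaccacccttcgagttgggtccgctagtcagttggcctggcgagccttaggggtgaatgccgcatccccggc

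The motifs searched on both strands were the AP-1 site TGANTCA, the full cyclic AMP response element TGACGTCA, its core TGACG, the ETS site CCGGAA, the Egr site GCGTGGGCG and the serum response factor site known as the CArG box. The core lies within the full element. In the windows printed, the core was found in Rgs2 at 216 to 212 bases before the start, on the strand opposite to the gene. In Rgs3 it lay 29 to 25 bases before the start, on the strand of the gene. An ETS match lay 103 to 98 bases before the start of Rgs19. The windows of Rgs10 and Rgs16 held no match to these letters. Over the 10 genes the core was found in 4 (also in Rgs1 and Rgs4) and the ETS site in 1, while AP-1, the full element, the Egr site and the CArG box were found in 0. Of 33469 RefSeq windows of the same length, 21.2% held the core, 15.0% the ETS site, 7.33% the AP-1 site, 1.83% the full element, 0.544% the Egr site and 1.64% the CArG box. A match is a string of letters and says nothing about binding. Base composition also varied: G and C made up 76.3% of the Rgs10 window and 69.7% of the Rgs2 window, against 44.7% for Rgs1 and a median of 51.7% over all windows.

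**Figure D1:**
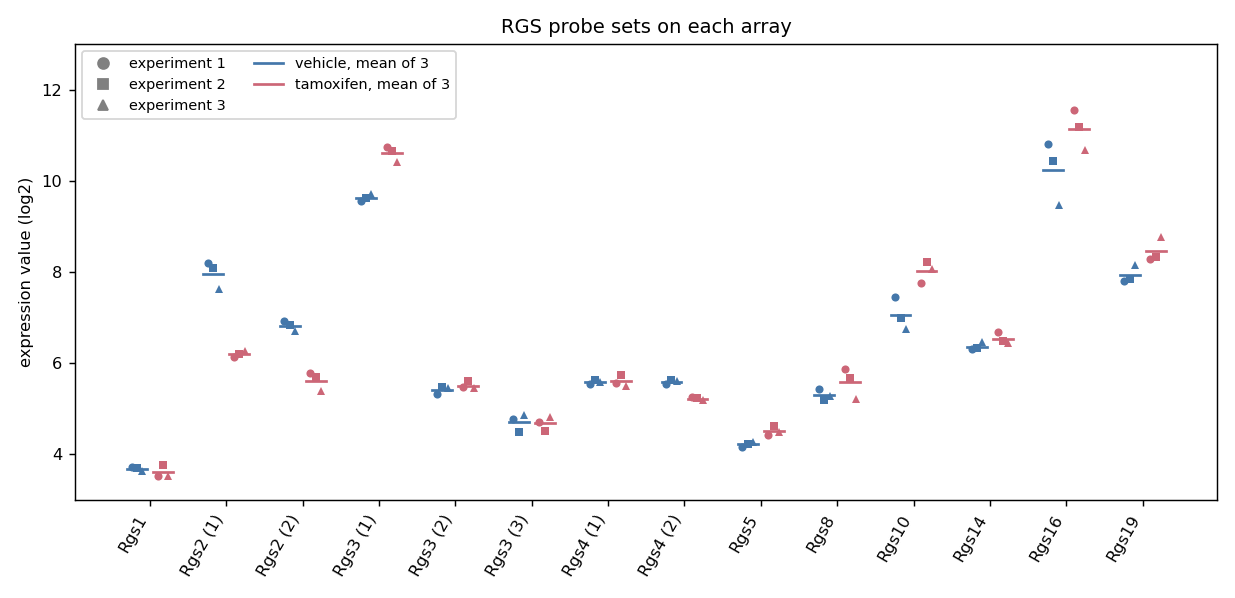
Log2 expression value (vertical axis) of the 14 RGS probe sets on each of the 6 arrays. Points are arrays, with the symbol giving the experiment, and short lines are means of 3; numbers in brackets order the probe sets of a gene from brightest to dimmest. The 3 tamoxifen values of both Rgs2 probe sets lie below all vehicle values, those of the brightest Rgs3 probe set and of Rgs10 lie above, and those of Rgs16 spread between 10.68 and 11.55.

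Rgs2 had the largest change of the 10 genes. This small protein is a preferred inhibitor of Gq signalling and is known as an early response gene in many cells. Its brighter probe set (1387074_at) read 8.19, 8.08 and 7.62 log2 units on vehicle arrays 1, 2 and 3, and 6.13, 6.19 and 6.27 on the tamoxifen arrays. The groups did not overlap, and the tamoxifen arrays were close together. The mean went from 7.96 ± 0.31 to 6.20 ± 0.07 (SD, n = 3 arrays in each group). This is a difference of -1.77 ± 0.16 (SE; 95% interval -2.14 to -1.39; limma adjusted p = 0.000889). The second probe set (1368144_at) read 6.93, 6.84 and 6.69 after vehicle and 5.78, 5.69 and 5.38 after tamoxifen. It changed by -1.21 ± 0.13 (adjusted p = 0.00167), again without overlap. The changes of the 2 probe sets differed by 0.56 ± 0.18 in size, which did not pass (limma on the difference of probe sets, adjusted p = 0.122). Both calls held in every analysis that left out 1 array, at -1.94 to -1.65 for the brighter and -1.29 to -1.09 for the dimmer probe set.

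Rgs3, which acts on Gi and Gq alpha subunits, rose by its brightest probe set (1367957_at) and not by the others. The vehicle arrays read 9.55, 9.62 and 9.72, and the tamoxifen arrays 10.74, 10.64 and 10.42. All tamoxifen values lay above all vehicle values, a change of 0.97 ± 0.11 (95% interval 0.71 to 1.23; adjusted p = 0.00187), and the call held without any 1 array. The second probe set (1376803_at) went from a mean of 5.41 ± 0.08 to 5.50 ± 0.08, a difference of 0.09 with an interval of -0.12 to 0.31 (adjusted p = 0.535). The third (1374528_at) stood at 4.71 ± 0.19 and 4.68 ± 0.15, a difference of -0.03 with an interval of -0.34 to 0.28 (adjusted p = 0.900). Both of these probe sets lay below the median level of all probe sets (6.37), where a value can be background and a change can go unread. The brightest changed by 0.88 ± 0.13 more than the second (adjusted p = 0.0130) and by 1.00 ± 0.18 more than the third (adjusted p = 0.0216). Among all 6609 such pairs of probe sets on the array, 7.6% differed in this way. The first of these differences no longer passed when tamoxifen array 1 (adjusted p = 0.0503) or tamoxifen array 2 (0.0647) was left out. The other no longer passed when vehicle array 3 (0.0756), tamoxifen array 1 (0.0776) or tamoxifen array 2 (0.101) was left out. Which transcript forms each probe set matches was not analysed here.

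Rgs10 is a small RGS protein that acts on Gi alpha subunits and is known for restraining inflammatory signals in microglia and macrophages. Its probe set (1390707_at) read 7.44, 6.99 and 6.74 on the vehicle arrays and 7.76, 8.23 and 8.06 on the tamoxifen arrays. The groups did not overlap, but the gap in experiment 1 was small. The differences within experiments 1, 2 and 3 were 0.32, 1.23 and 1.32 log2 units. The mean rose by 0.96 ± 0.20 (95% interval 0.47 to 1.44; adjusted p = 0.0163). It did not pass when vehicle array 2 (adjusted p = 0.0513), tamoxifen array 2 (0.0623) or tamoxifen array 3 (0.0564) was left out. Of 12 measured markers of macrophages, cells that also carry Rgs10, 0 passed in limma (2 at an unadjusted p of 0.05), with a mean level of 5.02 to 5.10 after vehicle and 5.05 to 5.12 after tamoxifen. The brightest of them, Laptm5 and Lyz2, differed by 0.13 and -0.18. Their part in the Rgs10 result was not tested.

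Rgs16 acts on Gi and Gq alpha subunits and is often induced by the signals it limits. It was read by 1 probe set (1373777_at), at 10.82, 10.44 and 9.46 on vehicle arrays 1, 2 and 3 and at 11.55, 11.18 and 10.68 on the tamoxifen arrays of the same numbers. The groups overlapped, since tamoxifen array 3 lay below vehicle array 1. Within each experiment the tamoxifen array was higher, by 0.74, 0.74 and 1.21 log2 units. The difference of means was 0.90 ± 0.37 (95% interval 0.00 to 1.79) and did not pass (adjusted p = 0.138). With the experiment as a block its standard error was 0.13 and it passed (adjusted p = 0.00779). Leaving out 1 array gave differences without the block from 0.51 (without vehicle array 3) to 1.18 (without vehicle array 1).

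Rgs19, also called GAIP, acts on Gi alpha subunits and sits on membranes. Its probe set (1370133_at) read 7.80, 7.85 and 8.15 after vehicle and 8.29, 8.33 and 8.76 after tamoxifen. The groups did not overlap, with vehicle array 3 just below tamoxifen array 1, and experiment 3 was the highest in both groups. The difference was 0.53 ± 0.16 (95% interval 0.14 to 0.91; adjusted p = 0.0578), and within experiments it was 0.49, 0.48 and 0.61. With the block the adjusted p was 0.0125, and without vehicle array 3 it was 0.0488.

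**Figure D2:**
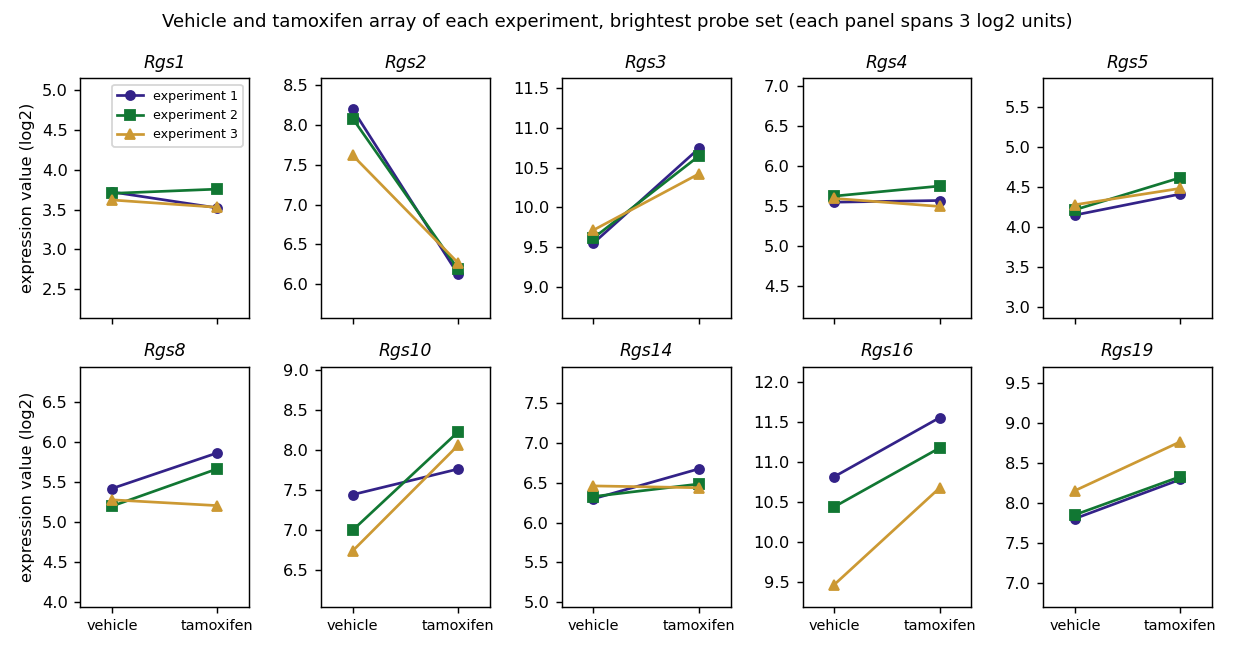
Log2 expression value of the brightest probe set of each of the 10 genes, with a line from the vehicle to the tamoxifen array of the same experiment; each panel spans 3 log2 units around its own mean. The 3 lines of Rgs16 rise side by side from different starting levels, by 0.74, 0.74 and 1.21, while those of Rgs10 rise by 0.32, 1.23 and 1.32.

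Of the 14 probe sets 6 lay at or above the median level of all probe sets (6.37), those of Rgs10, Rgs14, Rgs16 and Rgs19 and the brightest of Rgs2 and Rgs3. All probe sets of Rgs1, Rgs4, Rgs5 and Rgs8 lay below it, where a value can be background. Rgs4, best known from neurons, had probe sets that gave different calls. The brighter (1368506_at) read 5.54, 5.62 and 5.59 after vehicle and 5.57, 5.75 and 5.49 after tamoxifen, a difference of 0.02 (interval -0.21 to 0.24; adjusted p = 0.931). The dimmer (1368505_at) read 5.54, 5.62 and 5.61, and then 5.25, 5.22 and 5.18, without overlap. It changed by -0.37 ± 0.08 (adjusted p = 0.0153), a call lost without vehicle array 2 (0.0519), tamoxifen array 2 (0.0530) or tamoxifen array 3 (0.0517). The difference between the changes of these probe sets was 0.39 ± 0.12 and did not pass (adjusted p = 0.110).

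Rgs5, a marker of pericytes, stood at 4.15, 4.21 and 4.28 after vehicle and 4.41, 4.62 and 4.48 after tamoxifen. These groups did not overlap, but the difference of 0.29 ± 0.09 did not pass (interval 0.07 to 0.51; adjusted p = 0.0629). Of 12 measured pericyte and smooth muscle markers 0 passed in limma (1 at an unadjusted p of 0.05), with a mean level of 6.42 to 6.74 after vehicle and 6.38 to 6.66 after tamoxifen. The brightest of them, Mcam and Tagln, stood at 13.05 and 9.51 after vehicle and differed by -0.24 and -0.54. The part of these markers in the Rgs5 value was not tested. Rgs8, a mostly neuronal member, read 5.42, 5.20 and 5.28 and then 5.86, 5.67 and 5.20. Its groups overlapped through tamoxifen array 3, and the difference was 0.28 ± 0.18 (interval -0.14 to 0.70; adjusted p = 0.311).

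Rgs14 joins an RGS domain with a domain that binds Ras proteins, and it is a scaffold that can also bind Raf. It read 6.30, 6.33 and 6.46 after vehicle and 6.67, 6.48 and 6.44 after tamoxifen. The values overlapped, with a difference of 0.17 ± 0.10 (interval -0.07 to 0.41; adjusted p = 0.283). Rgs1, a regulator of chemokine signals in lymphocytes, was the dimmest, at 3.72, 3.70 and 3.62 and then 3.52, 3.76 and 3.53. The difference was -0.08 ± 0.10 (interval -0.31 to 0.15; adjusted p = 0.624). The 9 measured lymphocyte markers had mean levels of 5.12 to 5.17 after vehicle and 5.13 to 5.21 after tamoxifen, and 0 of them passed in limma (1 at an unadjusted p of 0.05). The brightest of them, Lck and Cd2, differed by -0.02 and 0.30.

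**Figure D3:**
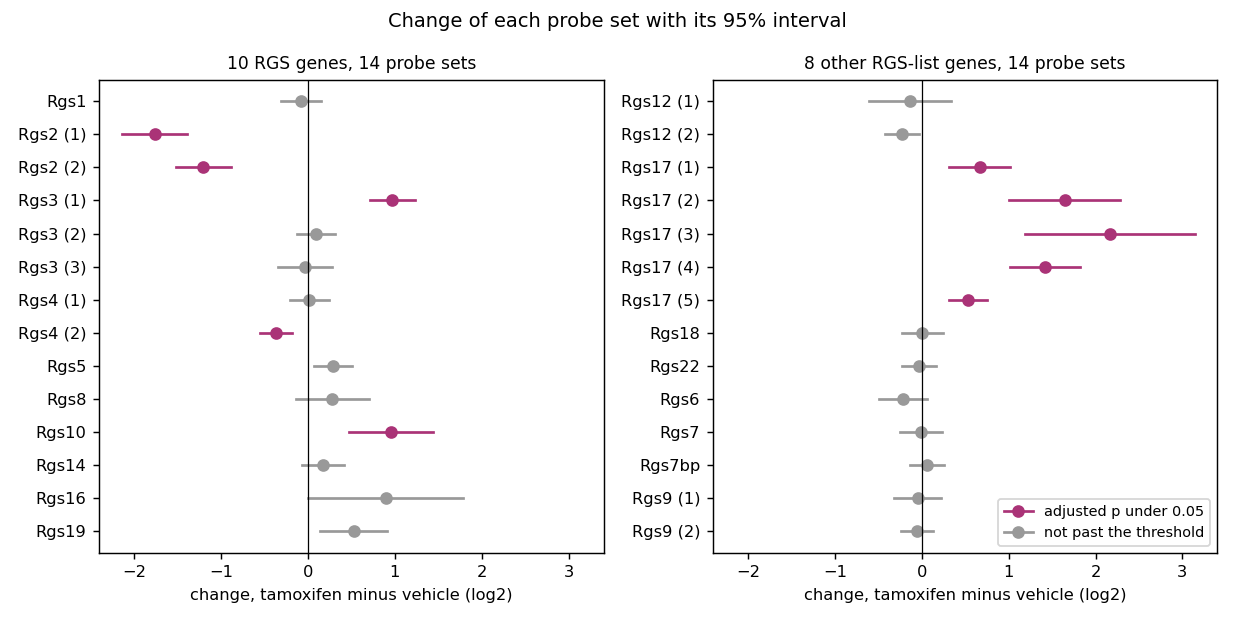
Change of each probe set (horizontal axis, log2 tamoxifen minus vehicle) with its 95% interval, for the 10 RGS genes (left) and for 8 other genes of the RGS list (right); colour marks an adjusted p under 0.05. On the left the intervals of both Rgs2 probe sets end at or below -0.89 and those of Rgs10 and the brightest Rgs3 probe set start at 0.47 and 0.71; on the right the 5 Rgs17 probe sets lie to the right of 0.

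Outside the 10 genes, 8 more genes of RGS proteins or their binding partners were measured by 14 probe sets. By brightest probe set 1 of the 8 rose, Rgs17, a relative of Rgs19 that acts on Gi and Gz alpha subunits. All 5 Rgs17 probe sets passed as higher, by 0.66, 1.64, 2.16, 1.42 and 0.53 log2 units in the order from brightest to dimmest. The largest of these changes came from a probe set (1391075_at) that read 4.05, 3.99 and 3.97 after vehicle and 5.23, 6.20 and 7.04 after tamoxifen, a change of 2.16 ± 0.41 (adjusted p = 0.0109). The vehicle arrays were nearly equal and the tamoxifen arrays spread widely. The calls of 4 of the Rgs17 probe sets held without any 1 array. The brightest (1394280_at, adjusted p = 0.0196) did not pass when vehicle array 2 (0.0513), vehicle array 3 (0.0565), tamoxifen array 2 (0.0727) or tamoxifen array 3 (0.0641) was left out. Rgs6, Rgs7 and Rgs9, which signal with the beta subunit Gnb5, and Rgs7bp, which anchors them to membranes, did not pass, nor did Rgs12, Rgs18 or Rgs22. Their probe sets differed between -0.23 and 0.05 log2 units.

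Of the 10 genes, 6 lie on chromosome 13 in the RefSeq annotation (GRCr8). Rgs8 and Rgs16 are neighbours with 0 protein-coding genes between them, and so are Rgs5 and Rgs4. Rgs2 and Rgs1 lie in a run of RGS genes with Rgs13 between them. Rgs2 changed by -1.77 and Rgs1 by -0.08, and Rgs16 by 0.90 and Rgs8 by 0.28, each by its brightest probe set.

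By the root mean square difference of log2 profiles over the 6 arrays, each set to its vehicle mean, the genes nearest to Rgs3 were Ptpn1 (0.08 log2 units), C1qtnf5 (0.09), Pla2g5 (0.11), Msn (0.12) and Mcm10 (0.12). Those nearest to Rgs2 were Emilin1 (0.11), Fbln5 (0.14), Chst8 (0.16), Trim45 (0.17) and Usp30 (0.17). The 5 genes nearest to Rgs3 changed by 0.85 to 1.00 and the 5 nearest to Rgs2 by -1.83 to -1.70. Changes of like size follow from choosing the genes by profile.

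The partners of RGS proteins were read from lists of the G protein pathway. By brightest probe set, of 148 measured genes in 7 lists 19 rose, 17 fell and 112 did not pass. This is 24.3% called against 31.2% of all genes. The median change of the 148 genes was 0.05. Some genes that did not pass had a dimmer probe set that did, as for Pde4b and Gnb1 below. Leaving out 1 array gave 13 to 21 that rose and 13 to 17 that fell. The lists were chosen with earlier results of these data known.

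Among 14 G protein alpha subunits, the direct targets of RGS proteins, 0 rose and 1 fell in limma (2 and 3 at an unadjusted p of 0.05). The gene that fell was Gna14, a Gq class subunit, which went from 7.21 ± 0.46 to 3.99 ± 0.13, a change of -3.22 ± 0.22 (adjusted p = 0.000414), the largest change in these 7 lists. Its dimmer probe set changed by -1.42 (adjusted p = 0.0355). The related Gnaq differed by 0.27 ± 0.31 (adjusted p = 0.597) and Gna11 by 0.66 ± 0.24 (0.0949). The Gi subunit genes Gnai1 and Gnai2 differed by 0.70 ± 0.31 (0.157) and -0.24 ± 0.11 (0.151). With the experiment as a block, Gna11 rose (adjusted p = 0.0223) and Gnao1 (0.0324) and Gnas (0.0452) fell beside Gna14. Without vehicle array 2, vehicle array 3 or tamoxifen array 3, 1 alpha subunit rose, and without vehicle array 1 or 3, 2 fell.

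Of 16 beta and gamma subunits 1 rose and 4 fell. Gng8 fell by 1.95 ± 0.18 and Gnb5, the partner of the Rgs6, Rgs7 and Rgs9 proteins, fell by 1.33 ± 0.17, both in every analysis without 1 array. Gng11 fell by 1.04 ± 0.28, but did not pass when vehicle array 1 (adjusted p = 0.0799), vehicle array 2 (0.0931), vehicle array 3 (0.0559) or tamoxifen array 1 (0.0571) was left out. Gng10 rose by 0.50 ± 0.11, but did not pass when tamoxifen array 2 was left out (0.0678). Gnb2, the fourth that fell, passed in 1 of the 6 analyses without 1 array and not with the block (0.0659). In this list 2 genes fell when vehicle array 2, vehicle array 3 or tamoxifen array 1 was left out. Gnb1 differed by 0.10 ± 0.18 by its brightest probe set and did not pass (adjusted p = 0.737). Its dimmer probe sets gave a rise of 0.64 ± 0.09 (0.00410) and a difference of -0.08 (0.861).

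Of 15 other proteins with an RGS homology domain 3 rose and 1 fell. Axin2, a scaffold of the Wnt pathway, rose by 1.92 ± 0.21. Grk6, a kinase that desensitises receptors, rose by 1.52 ± 0.17. Its dimmer probe sets gave 1.37 and 1.69. The sorting nexin gene Snx25 rose by 1.21 ± 0.16. The receptor kinase gene Grk4 fell by 1.04 ± 0.21, while its dimmer probe set differed by -0.07 (adjusted p = 0.756). These 4 calls held without any 1 array, and without vehicle array 1 there were 2 falls.

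Of 13 modulators and arrestins 2 rose and 2 fell. The arrestin gene Arrb1 rose by 0.81 ± 0.08, and by 1.47 by its dimmer probe set. Gpsm2, which binds Gi alpha subunits in their GDP form, fell by 1.55 ± 0.27. Both calls held without any 1 array. Gipc1, which binds the tail of Rgs19, rose by 0.39 ± 0.10 and lost its call in each of the 6 analyses without 1 array (adjusted p = 0.0516 to 0.0899). Ric8a, a chaperone of alpha subunits, fell by 0.46 ± 0.11, but did not pass when vehicle array 2 (0.0601), tamoxifen array 1 (0.0569) or tamoxifen array 3 (0.0637) was left out.

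Of 30 effectors 6 rose and 3 fell. Plcb1, a phospholipase that Gq activates, rose by 1.24 ± 0.11. The protein kinase A regulatory subunit gene Prkar2b rose by 1.49 ± 0.41 and passed in 1 of the 6 analyses without 1 array, and the calcium channel gene Itpr1 rose by 1.22 ± 0.29, lost without vehicle array 2 (adjusted p = 0.0683) or 3 (0.0589). The adenylyl cyclase gene Adcy5 fell by 1.38 ± 0.26, with -0.02 by its dimmer probe set, and Prkca fell by 0.91 ± 0.12. Prkacb, a catalytic subunit of protein kinase A, fell by 0.63 ± 0.13, while its other probe sets gave -0.42 (adjusted p = 0.172) and 0.05 (0.954). With the block 5 effectors fell, Itpr3 and Plcb4 beside these, and without vehicle array 2 the number that rose was 3.

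Of 15 phosphodiesterases 2 rose and 4 fell. Pde7b and Pde8a rose by 1.41 ± 0.24 and 0.89 ± 0.12. Pde1c fell by 1.42 ± 0.28, Pde3b fell by 0.95 ± 0.16 and Pde7a fell by 0.79 ± 0.16. These 5 calls held without any 1 array, and the fourth fall, Pde2a, held in 1 of 6 such analyses. Pde4b differed by 0.98 ± 0.32 by its brightest probe set and did not pass (adjusted p = 0.0691), but passed with the block (0.0354). Its dimmer probe set rose by 1.33 ± 0.24 (0.00869).

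Of 45 receptors that couple to G proteins 5 rose and 2 fell. The thrombin receptor gene F2r rose by 1.25 ± 0.24, the lysophosphatidic acid receptor gene Lpar6 by 1.20 ± 0.17 and the sphingosine phosphate receptor gene S1pr2 by 1.07 ± 0.14. Gabbr1 rose by 0.64 ± 0.17 and passed in 1 of 6 analyses without 1 array. Its other probe sets went both ways, among them -0.62 (adjusted p = 0.0864) at a like vehicle level and 1.19 (0.0116). Ptger4 rose by 0.68 ± 0.18 at a low level, and passed in 2 of 6 such analyses and not with the block (0.0534). S1pr1 fell by 0.91 ± 0.15 at a low level, with -0.07 by its dimmer probe set. The adhesion receptor gene Adgrg1 fell by 1.05 ± 0.27, but did not pass when vehicle array 1 (adjusted p = 0.0746), vehicle array 2 (0.0750), tamoxifen array 2 (0.0868) or tamoxifen array 3 (0.0674) was left out. Adgrg6, the receptor that starts myelination through cyclic AMP, differed by 0.07 ± 0.29 (adjusted p = 0.895), and by -0.32 ± 0.27 (0.457) by its other probe set. With the block 4 receptors fell, Lpar1 and S1pr3 beside these. Without vehicle array 2 or tamoxifen array 2 the number that rose was 3, and 1 fell when vehicle array 1, vehicle array 2, tamoxifen array 2 or tamoxifen array 3 was left out.

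**Figure D4:**
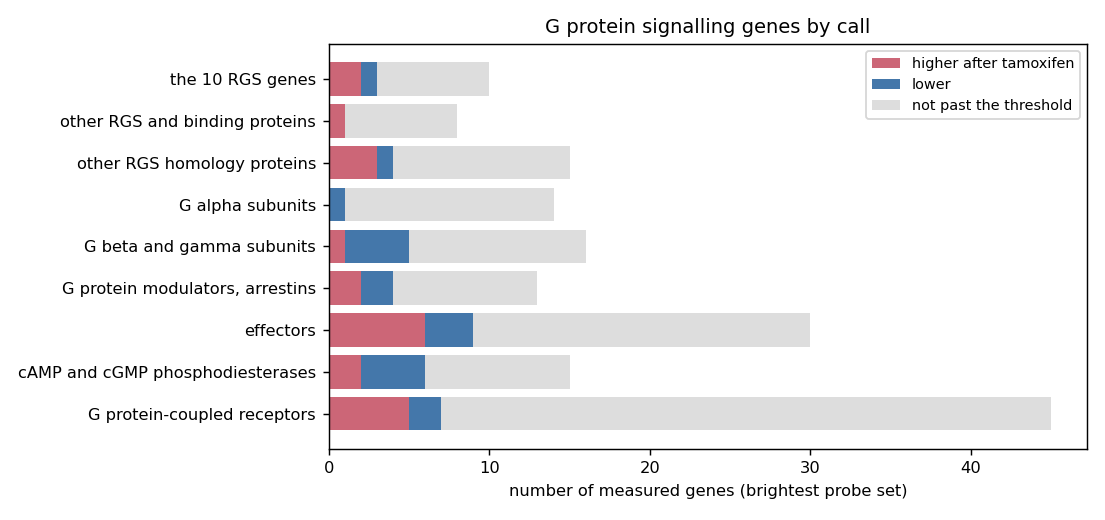
Number of measured genes (horizontal axis, brightest probe set of each gene) that were higher, lower or not past the threshold after tamoxifen, for the 10 RGS genes, the other RGS genes and 7 lists of the G protein pathway. In each list most genes did not pass, from 9 of 15 phosphodiesterases to 13 of 14 alpha subunits.

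Markers of the labelled cell type were bright. Of 9 measured Schwann cell markers 8 were above the median level of all probe sets, with S100b at 13.11 ± 0.08 and Sox10 at 11.58 ± 0.72 after vehicle. After tamoxifen 4 of these 9 fell and 0 rose in limma (5 and 0 at an unadjusted p of 0.05). The brightest, Cnp and S100b, changed by -1.26 and -0.76, and the mean level of the 9 went from 11.08 to 11.18 after vehicle to 9.81 to 10.45 after tamoxifen. The call of S100b was kept in 1 of 6 analyses without 1 array. Of 12 fibroblast markers 3 rose and 2 fell, with mean levels of 6.22 to 6.30 and 6.39 to 6.42. The 3 that rose were Fbln1 by 1.61 (adjusted p = 0.000751), Pdgfra by 0.52 (0.0143) and Pi16 by 0.37 (0.0433). Fbln1 passed in all 6 analyses without 1 array, Pdgfra in 5 and Pi16 in 0. The dimmer Fbln1 probe set differed by 0.11 and did not pass (adjusted p = 0.448). The 2 that fell were Col1a1, which fell by 1.23 from 13.15, and Col1a2, which fell by 0.46 from 13.26 and passed in 1 of those 6 analyses. Of 9 endothelial markers 0 rose and 1 fell in limma (0 and 1 at an unadjusted p of 0.05), Egfl7. The brightest, Egfl7 and Esam, differed by -0.49 and -0.02. Of 10 neuronal markers 0 rose and 1 fell (1 and 1 unadjusted), Tubb3, while the brightest, Nefl and Nefm, differed by -0.29 and -0.78. The dimmer Tubb3 probe set differed by 0.13 and did not pass (adjusted p = 0.309). The values carry no detection calls, so no marker can be said to be at 0. The part of these markers in the RGS results was not tested. The vehicle array of experiment 1 had a mean 3' minus 5' difference of 0.84 log2 units over 3 control transcripts, against 0.16 to 0.27 on the other 5 arrays. Without that array 2 RGS probe sets were higher and 3 lower, as with it. Dusp6, a phosphatase gene that ERK signalling induces, rose by 4.53 ± 0.08. Here too an effect of RafER and an effect of tamoxifen itself cannot be told apart.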

How the data were processed

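The authors deposited 1 log2 expression value for each probe set and array, made with RMA per the submitters' processing notes (version not given). RMA subtracts background, equalises the arrays and summarises probes, which can shrink the folds of dim probe sets. The values ran from 2.99 to 14.58. The file holds no detection calls, and the number of arrays limits the precision. Of 31099 probe sets, 57 manufacturer controls were left out. Gene symbols came from the platform annotation: 20826 probe sets had 1 symbol, 436 several and 9780 none here.

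The tamoxifen and vehicle groups were compared by limma 3.58.1 in R 4.3.3 (lmFit, eBayes), two-sided, without covariates, over all probe sets. Groups were taken from titles. No exact permutation test was used, since 3 against 3 arrays cannot give a small p. The members, lists and named genes were chosen with earlier results of these data known, by the rule that names up to 3 genes of each list with the largest change past the threshold in each direction by brightest probe set, the 2 brightest markers of each marker list and the 5 genes with profiles nearest to Rgs3 and Rgs2. Gnaq, Gna11, Gnai1, Gnai2, Gnao1, Gnas, Gnb1, Gnb2, Pde2a, Pde4b, Itpr3, Plcb4, Lpar1, S1pr3, Gabbr1, Ptger4, Adgrg6, Sox10, Fbln1, Pdgfra, Pi16, Tubb3 and Dusp6 were named outside that rule, after their values were seen. Correlations of same-numbered arrays after subtraction of group means were 0.26, 0.20 and 0.28. Those of vehicle and tamoxifen arrays with unlike numbers were -0.27 to -0.04. The numbers in the titles were therefore taken as pairs in the block and in the differences within experiments. The main fit leaves the pairs out, so differences between experiments add to its error. Its p-values set the difference of group means against the spread of arrays within groups. Alternatives were the block, leaving out each array, other scalings, a filter at the median level of 6.37, other variance models, array weights and a 3' minus 5' covariate. On simulated data with 200 of 31042 probe sets changed, the procedure recovered 9.6% of changes of 0.5 log2 units, 84.4% of 1 and 97.8% of 2. Of the calls 5.92% were false. In the real data 24.4% of probe sets passed, and arrays of 1 experiment were correlated, which the simulated noise was not. These shares therefore check the procedure and do not give the recovery in these data.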

Additional observations from a re-analysis of the deposited data

How the results depend on the processing

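The directions of both Rgs2 probe sets, the brightest Rgs3 probe set and Rgs10 were the same under every alternative run for them. The Rgs2 calls held in all 16 alternatives for the brighter probe set and in the 15 run for the dimmer one, which the filter on dim probe sets removes. Rgs3 lost its call in the test against a fold of 1.5 (adjusted p = 0.0859). Rgs10 lost its call in that test (0.492) and in the unmoderated test (0.0851). Rgs19 gained a call with quantile normalization (0.0386), cyclic loess (0.0397) and the filter on dim probe sets (0.0449), and Rgs5 with eBayes with trend and robust (0.0344) and array weights (0.0493). The experiment as a replicate block gave 4 higher RGS probe sets and 4 higher genes, and changed no RGS call other than those of Rgs16 and Rgs19. Averaging the probe sets of each gene, with the limma fit and the adjustment then made over genes, also gave 4 higher genes. Rgs5 (adjusted p = 0.0452) and Rgs19 (0.0430) were added, but each has 1 probe set and its change stayed the same. Rgs3 stayed higher, at 0.34 (0.0173). The unmoderated test left 1 higher RGS probe set and gene, the test against a fold of 1.5 left 0 of each, and the filter left 1 lower probe set of the 6 RGS probe sets it keeps. Leaving out 1 array gave 1 to 3 higher RGS probe sets and genes (3 without vehicle array 3, which adds Rgs19), and 2 to 3 lower probe sets. Over all probe sets the unmoderated test called 1957 higher and 1715 lower, the test against a fold of 1.5 called 833 and 615, and leaving out 1 array gave 2427 to 3424 higher and 2668 to 3771 lower, the lowest without tamoxifen array 2. The pairs of probe sets that differed went from 502 to between 122 and 710 when 1 array was left out, and to 717 with the block. Differences near 0 changed sign: the third Rgs3 probe set went from -0.138 (without vehicle array 2) to 0.051 (without tamoxifen array 2) when 1 array was left out and was 0.031 with the 3' minus 5' covariate. The brighter Rgs4 probe set went from -0.057 (without tamoxifen array 2) to 0.070 (without tamoxifen array 3), and was -0.022 with median centring, -0.037 with quantile normalization, -0.043 with cyclic loess and -0.013 with the covariate. Where a call changed, the cause was not tested. Dim probe sets such as those of Rgs1 and Rgs5 have no detection call, so a low value there cannot be told from background.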
